A study of Mus musculus with 6 samples.

Results

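The Chd4 and the Seh1 peaks of unperturbed (Ctrl) mouse neural stem cells were compared, as listed from chromatin immunoprecipitation and sequencing (ChIP-seq). The lists were chosen by the group label of their library, and held 1154 Chd4 peaks and 20833 Seh1 peaks. Together these were 21987 of the 97783 peaks in the 6 lists of the series. Both Ctrl libraries came from primary neural stem cells of the cortex of newborn (P0) mice, with a wild type genotype and growth medium as the treatment, per the labels. The medium of every group contained EGF and bFGF, and no Ctrl cell received 4-OH-TAM, per the labels. The other lists were used only for comparison. Chd4 was profiled in cells titled siSCR (2606 peaks) and siSeh1 (26935 peaks), both labelled wild type in growth medium, and in cells titled iKO (21294 peaks), labelled mutant and treated with 4-OH-TAM. Seh1 was also profiled through a flag tag (24961 peaks) in cells titled iKO and labelled wild type, treated with 4-OH-TAM. The labels do not say which promoter drove a recombinase, whether animals were pooled, or which antibodies were used.

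Each group had 1 library, so no difference below has a replicate check and no p-value is given. Peak lists hold no expression values, so the labelled cell type was not checked against its markers. Total tags are not in these lists, and the depth of both libraries is unknown. A list made from a deeper library or with a looser threshold is longer, and this was not tested. Shares carry exact Clopper-Pearson 95% intervals, which cover counting error only.

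Seh1 (gene Seh1l) is a nucleoporin of the Y-shaped complex, the scaffold on each face of the nuclear pore, and it is also a subunit of the GATOR2 complex of amino acid signalling. Chd4 is the motor subunit of NuRD, a complex named for nucleosome remodelling and deacetylation, which slides nucleosomes and removes acetyl groups from histones at promoters and enhancers. Some nucleoporins bind chromatin away from pores as well as at them. In the developing cortex, NuRD is known for its part in the change from dividing progenitors to neurons.

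Peaks within 1 kb of a transcription start site (TSS) were few, naming 7 genes in the Chd4 list and 282 in the Seh1 list. The promoter sequences given here held part of a Seh1 interval in a gene that the Chd4 list also named, with a Chd4 peak within 2 kb. The sequences themselves held no Chd4 peak. They are shown from 250 bases before to 50 bases after the TSS, from RefSeq on GRCm38.p6, and capitals mark the bases inside the Seh1 Ctrl interval. The Ppp2r3a promoter lies at chr9:101251783-101252082 on the minus strand, the Gm7609 promoter at chr1:85199361-85199660 on the plus strand and the AY761185 promoter at chr8:20944699-20944998 on the minus strand.
Ppp2r3a: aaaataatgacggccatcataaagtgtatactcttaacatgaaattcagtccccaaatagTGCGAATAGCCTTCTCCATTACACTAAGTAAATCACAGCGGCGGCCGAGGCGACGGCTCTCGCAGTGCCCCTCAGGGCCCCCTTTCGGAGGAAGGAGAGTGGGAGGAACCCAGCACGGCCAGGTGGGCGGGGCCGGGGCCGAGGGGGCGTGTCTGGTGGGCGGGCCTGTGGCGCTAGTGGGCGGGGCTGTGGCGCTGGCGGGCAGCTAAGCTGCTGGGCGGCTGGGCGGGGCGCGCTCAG
Gm7609: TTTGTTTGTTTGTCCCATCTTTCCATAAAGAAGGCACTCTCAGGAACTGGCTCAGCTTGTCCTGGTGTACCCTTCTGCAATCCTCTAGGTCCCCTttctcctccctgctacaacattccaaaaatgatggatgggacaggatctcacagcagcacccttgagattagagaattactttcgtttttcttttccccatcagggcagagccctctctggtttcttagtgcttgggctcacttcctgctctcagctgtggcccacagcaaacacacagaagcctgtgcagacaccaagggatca
AY761185: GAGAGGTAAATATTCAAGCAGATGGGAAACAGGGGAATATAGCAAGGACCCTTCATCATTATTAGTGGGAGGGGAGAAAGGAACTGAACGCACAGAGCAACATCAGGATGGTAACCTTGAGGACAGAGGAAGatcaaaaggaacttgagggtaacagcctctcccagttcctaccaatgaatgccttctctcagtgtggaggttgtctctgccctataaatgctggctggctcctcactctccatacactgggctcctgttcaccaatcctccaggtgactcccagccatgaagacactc

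Ppp2r3a encodes a regulatory subunit of protein phosphatase 2A. Its Seh1 interval covered 240 of the 300 bases shown, and the promoter held 23 CG dinucleotides with a GC content of 63.7%. The only Chd4 Ctrl peak named for Ppp2r3a lay 1.99 kb from that interval, with a score of 2.58. The promoters of Gm7609 and AY761185 each held 1 CG, with a GC content of 49.3%. Their Seh1 intervals covered 95 and 132 bases of the window, and the nearest Chd4 peaks lay 0.709 kb and 0.882 kb from them. Of the 32851 promoter windows of this length in the RefSeq table, 89 held part of a Seh1 Ctrl interval and 0 held part of a Chd4 Ctrl window. The median number of CG dinucleotides was 3 in the windows with Seh1, against 7 over all windows, and 94.6% of all windows held at least 1.

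Chd4 peaks that overlapped a Seh1 peak made up a small part of both lists. The Chd4 list gives a single position per peak, which was widened to 240 bp, the most common width of the Seh1 intervals (240 to 1296 bp, median 273 bp). By at least 1 bp, 20 of the 1154 Chd4 peaks overlapped a Seh1 peak, or 1.73% (interval 1.06 to 2.66%). The same sites were 20 of the 20833 Seh1 peaks, or 0.096% (0.0586 to 0.148%). At 16 of them the Chd4 position itself lay inside the Seh1 interval. On the autosomes and X, 14 of 1135 Chd4 positions lay inside one, or 1.23% (0.676 to 2.06%), against 0.246% of the span between the outermost peaks of the 6 lists that the intervals covered. The offset between the Chd4 position and the centre of the interval was 49.5 bp at the median, with a range of 4 to 242 bp without regard to side.

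**Figure D1:**
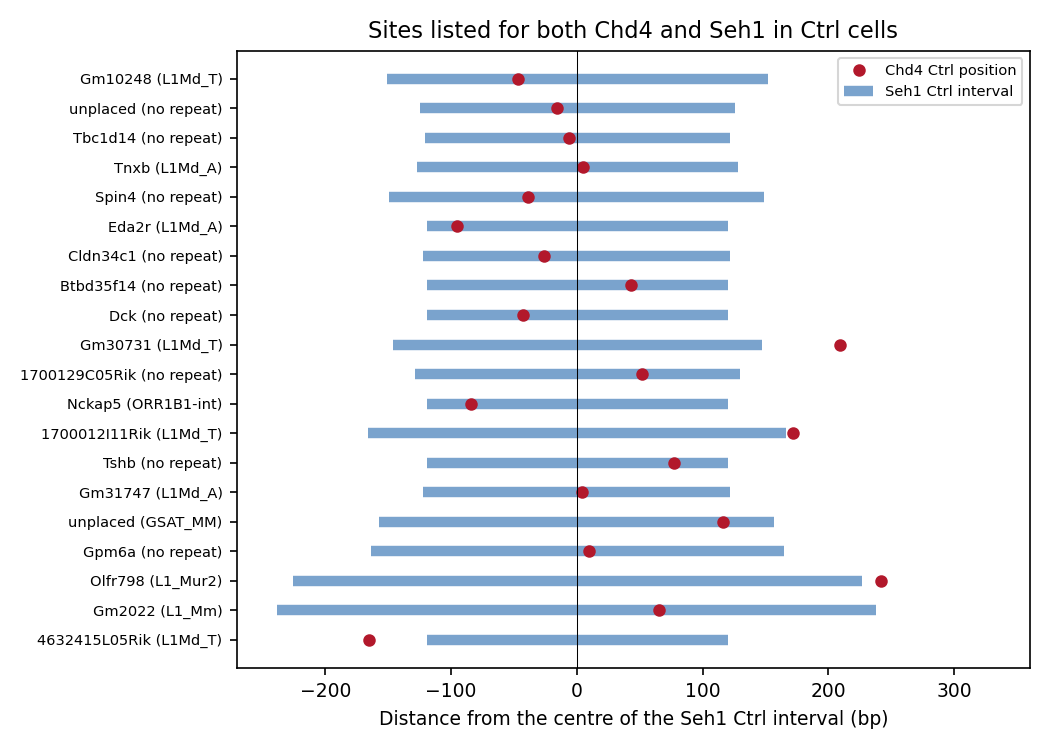
Offset of the Chd4 Ctrl position (red points) from the centre of the overlapping Seh1 Ctrl interval (blue bars), in bp, at the 20 shared sites, named by gene and by the repeat at the Chd4 position and ordered by Chd4 score from top to bottom. In 16 rows the point lies on the bar, and in 4 it lies beside it.

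The shared sites were distal, as was the Chd4 list as a whole. None lay within 1 kb of a TSS, but only 0.607% of all Chd4 Ctrl peaks did, so little can be read from 20 sites. The 18 sites with a gene name were 7.11 kb or more from its TSS. Their median was 53.8 kb, against 86.1 kb for all Chd4 Ctrl peaks. Both lists named an identical nearest gene at each of these 18 sites. This follows largely from the overlap, as the Chd4 position lay at most 242 bp from the centre of the Seh1 interval. The other 2 sites lay on unplaced sequence with no gene. By annotation 11 of the 20 sites were intergenic and 7 intronic, beside 73.7% and 23.7% of all Chd4 Ctrl peaks. By repeat 9 lay in LINE elements, of which 4 were L1Md_T and 3 L1Md_A, and 9 lay outside repeats. In the whole Chd4 Ctrl list 33.9% of peaks lay in LINE elements and 44.1% outside repeats. One lay in an LTR element (ORR1B1-int, in Nckap5) and 1 in the major satellite GSAT_MM, on unplaced sequence.

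The highest-scoring shared site, with a Chd4 score of 11.9 (rank 12 of 1154), lay at chr14:22831413 in the last intron of Lrmda, in an L1Md_T element, and its nearest TSS was that of Gm10248. The Seh1 interval there ran from 22831309 to 22831612 and contained it. The next site with a gene scored 8.08 and lay at chr5:36630626 in intron 2 of D5Ertd579e, outside repeats, with Tbc1d14, a regulator of Rab GTPases, as its nearest gene. A site in intron 8 of Tnxb, the gene of the extracellular matrix protein tenascin X, scored 7.92 at chr17:34687343, in an L1Md_A element. These coordinates are mm10, per the file headers.

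The shared sites reached down the whole list. At the median they scored 3.65, against 3.66 for all Chd4 Ctrl peaks, and 10 of the 20 fell among the 577 higher-scoring peaks. The lowest, near 4632415L05Rik, scored 2.09 (rank 1138) in an L1Md_T element. The score is the authors' deposited value, its scale is not stated, and 219 Chd4 peaks carried an identical value of 3.66. The cut at 577 peaks fell among these ties, which were taken in order of position, and the site near Gm30731 was 1 of them. All Seh1 Ctrl scores are 0, so the Seh1 peaks at these sites cannot be ranked.

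Sites on X lay near Spin4, of the spindlin family of histone readers, at a score of 6.46, near Eda2r, a receptor for ectodysplasin A2, at 5.25, near Cldn34c1, of the claudin family of tight junction proteins, at 4.70, and near Btbd35f14, of a multicopy family with a BTB domain, at 4.44. Autosomal sites with known neural or housekeeping neighbours lay near Gpm6a, a neuronal membrane glycoprotein (score 3.07, 398 kb from its TSS), and in intron 3 of Mob1b, a Hippo pathway protein, with the nucleoside kinase gene Dck nearest (4.04). A site in intron 29 of Sycp1, the gene of a synaptonemal complex protein, had the hormone subunit gene Tshb nearest (3.53). The other named sites lay near Gm30731, 1700129C05Rik, 1700012I11Rik, Gm31747, Olfr798 and Gm2022, with scores between 2.96 and 3.66. Of these, the olfactory receptor gene Olfr798 was the closest to its peak, at 7.11 kb.

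Most shared sites were absent from the other lists, as were most peaks of the Chd4 Ctrl list. Of the 20 Chd4 windows, 3 overlapped a Chd4 peak of siSCR (at Gm10248, Tnxb and Gpm6a) and 4 a Seh1-flag peak (at Gm10248, Spin4, Cldn34c1 and 1 of the unplaced sites). None overlapped a Chd4 peak of iKO or siSeh1, and 14 overlapped no peak of these 4 lists. The siSCR list met the Seh1 Ctrl list at a share close to that of Ctrl, with 43 of 2606 peaks or 1.65% (1.20 to 2.22%). The Chd4 Ctrl list overlapped the Seh1-flag list at 121 peaks, or 10.5% (8.78 to 12.4%), and the siSCR list at 61, or 5.29% (4.07 to 6.74%). It overlapped the iKO list at 14 peaks, or 1.21% (0.665 to 2.03%), and the siSeh1 list at 19, or 1.65% (0.994 to 2.56%). With whole-list shares this low, the absence of iKO and siSeh1 peaks at 20 sites says little about the shared sites. For siSCR and Seh1-flag, 3 and 4 of 20 sites were not below the whole-list shares of 5.29% and 10.5%.

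Chd4 peaks usually lay far from the nearest Seh1 peak. The distance from the Chd4 position to the edge of the nearest Seh1 interval was 34.4 kb at the median (interval 30.7 to 37.7 kb), with quartiles of 12.5 and 77.4 kb, over the 1148 Chd4 peaks on a sequence with a Seh1 peak. Within 1 kb lay 52 peaks, or 4.51% (3.38 to 5.87%), within 10 kb 247, or 21.4% (19.1 to 23.9%), and within 100 kb 944, or 81.8% (79.5 to 84.0%). The remaining 204 measured peaks were farther than 100 kb from any Seh1 peak, and 1 was more than 1 Mb away.

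With 20833 Seh1 peaks, much of the genome is near one. On the autosomes and X, 238 of 1135 Chd4 Ctrl peaks, or 21.0% (18.6 to 23.5%), lay within 10 kb of a Seh1 Ctrl interval, against 14.9% of the span between the outermost peaks of the 6 lists. Within 1 kb the shares were 4.32% of Chd4 peaks (3.21 to 5.67%) and 1.84% of the span. Within 100 kb they were 82.1% of Chd4 peaks (79.8 to 84.3%) and 79.3% of the span. The span counts every base, assembly gaps included, and no genome sequence was used to leave out bases where reads cannot be placed. On the autosomes alone the shares within 10 kb were 18.4% of Chd4 peaks (15.8 to 21.1%) and 14.7% of the span. On X they were 29.2% of Chd4 peaks (23.9 to 35.0%) and 17.0% of the span.

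**Figure D2:**
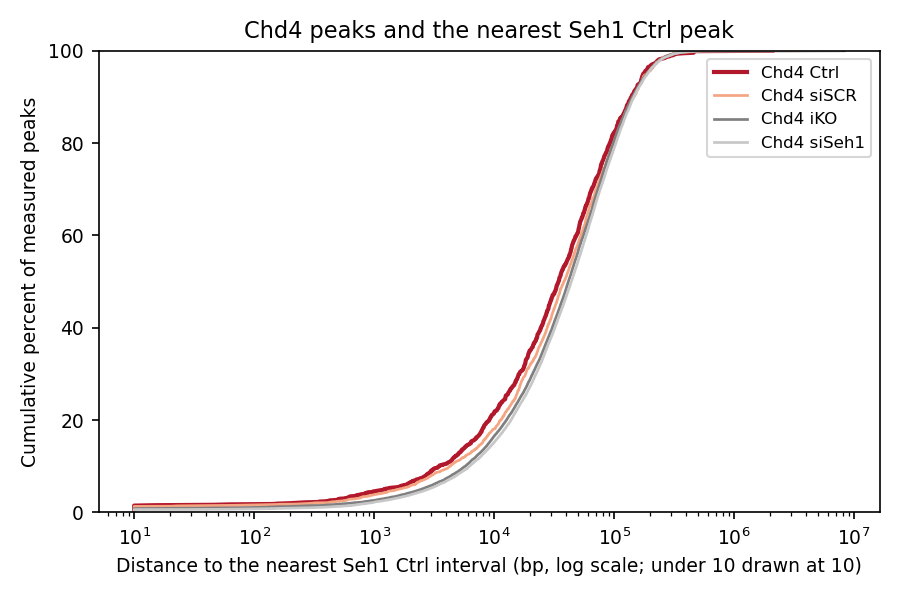
Cumulative percent of the measured peaks of the 4 Chd4 lists by distance to the nearest Seh1 Ctrl interval, in bp on a log axis. The Ctrl curve has its median at 34.4 kb, against 38.2 kb for siSCR, 41.6 kb for iKO and 43.9 kb for siSeh1.

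With all chromosomes counted, the Ctrl list had the shortest median distance to Seh1 among the 4 Chd4 lists, but on the autosomes it did not. The median distance to a Seh1 Ctrl peak was 34.4 kb in Ctrl, against 38.2 kb (35.4 to 41.0 kb) in siSCR, 41.6 kb (40.8 to 42.4 kb) in iKO and 43.9 kb (43.2 to 44.8 kb) in siSeh1. The intervals of Ctrl and siSCR overlapped. On the autosomes alone the medians were 40.6 kb (34.9 to 44.0 kb) in Ctrl, against 39.9 kb (36.7 to 42.2 kb) in siSCR, 42.2 kb (41.4 to 43.1 kb) in iKO and 44.5 kb (43.6 to 45.4 kb) in siSeh1. With all chromosomes, the share within 10 kb was 21.4% in Ctrl and 18.0% (16.5 to 19.5%) in siSCR, and these intervals overlapped too. Distances to the Seh1-flag list were shorter than those to Seh1 Ctrl, with a median of 17.0 kb (14.2 to 19.5 kb) and 460 Chd4 Ctrl peaks within 10 kb, or 39.9% (37.0 to 42.8%).

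At the median, Chd4 peaks on X lay closer to Seh1 than those on the autosomes, while the intervals of the annotation and repeat subsets overlapped. Peaks on X had a median distance of 24.4 kb, against 40.6 kb on the autosomes. Within 1 kb X was not ahead, with 4.01% of its peaks (2.02 to 7.07%), against 4.41% on the autosomes (3.14 to 6.01%). In the densely packed bins described below, 28.9% of peaks lay within 10 kb (23.2 to 35.3%), against 19.5% outside them (17.0 to 22.2%). Peaks in introns had 43.7 kb and 16.1% within 10 kb (11.96 to 21.03%), against 33.1 kb and 22.0% (19.2 to 24.9%) for intergenic peaks. Within 1 kb the order was the opposite, with 5.49% of intronic peaks (3.11 to 8.90%), against 3.76% of intergenic peaks (2.59 to 5.27%), and both pairs of intervals overlapped. In L1Md elements 21.9% of the Chd4 peaks lay within 10 kb (16.6 to 27.9%), against 21.2% (17.7 to 25.0%) outside repeats, a difference well inside counting error. In LTR elements the share was 16.2% (10.6 to 23.3%), and in SINE elements, with 44 peaks, it was 31.8% (18.6 to 47.6%).

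In Ctrl cells both lists lay mostly far from genes, and the Chd4 list farther than the Seh1 list. Intergenic positions made up 73.7% of Chd4 peaks (71.1 to 76.3%), against 61.3% of Seh1 peaks (60.6 to 61.9%). Introns held 23.7% of Chd4 peaks (21.2 to 26.2%), against 34.8% of Seh1 peaks (34.1 to 35.4%). The median distance to the nearest TSS was 86.1 kb for Chd4 (76.0 to 94.7 kb), against 58.9 kb for Seh1 (57.3 to 60.3 kb). Within 1 kb of a TSS lay 7 Chd4 peaks, or 0.607% (0.244 to 1.25%), against 282 Seh1 peaks, or 1.35% (1.20 to 1.52%). Exons held 3 Chd4 peaks and 220 Seh1 peaks. The other Chd4 lists lay closer to genes than Seh1 Ctrl, with median TSS distances of 35.1 kb in siSCR, 49.2 kb in iKO and 37.98 kb in siSeh1, and with 15.0%, 5.96% and 10.5% of their peaks within 1 kb in that order.

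LINE elements, retrotransposons that copy themselves through RNA, were the repeat class most often met in both lists. They held 391 Chd4 peaks, or 33.9% (31.2 to 36.7%), against 5232 Seh1 peaks, or 25.1% (24.5 to 25.7%). A share above that of Seh1 Ctrl held for the Ctrl list and not for the other Chd4 lists. In these, LINE elements were also the leading repeat class, but held 23.8% of peaks in siSCR, 24.3% in iKO and 18.7% in siSeh1. Subfamilies of young mouse L1 elements accounted for more of the Chd4 list. L1Md_T held 105 Chd4 peaks, or 9.10% (7.50 to 10.9%), against 3.39% of Seh1 peaks (3.15 to 3.65%). L1Md_A held 5.20% of Chd4 peaks (3.99 to 6.64%), against 2.28% of Seh1 peaks (2.08 to 2.49%). L1Md_F2 held like shares, 4.07% of Chd4 peaks (3.01 to 5.38%) and 3.44% of Seh1 peaks (3.19 to 3.69%). L1Md elements together held 19.4% of Chd4 peaks (17.2 to 21.8%), against 10.0% of Seh1 peaks (9.63 to 10.4%). They held 13.8% of Chd4 peaks in siSCR (12.5 to 15.2%), 10.7% in iKO and 6.73% in siSeh1. Reads from near-identical L1 copies can map to several places, and the sources used here do not say how the authors treated such reads.

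Other repeats differed in both directions. LTR elements held 12.3% of Chd4 peaks (10.5 to 14.3%) and 12.6% of Seh1 peaks (12.2 to 13.1%). Within them the ERVK family held 9.01% of Chd4 peaks (7.42 to 10.8%), against 5.47% of Seh1 peaks (5.17 to 5.79%), and the ERVL-MaLR family 2.08% of Chd4 peaks (1.34 to 3.08%), against 4.48% of Seh1 peaks (4.20 to 4.77%). SINE elements held 3.81% of Chd4 peaks (2.78 to 5.08%), against 7.29% of Seh1 peaks (6.94 to 7.65%). Satellites held 3 Chd4 peaks and 104 Seh1 peaks. Of the Seh1 satellite peaks, 38 lay in 1 bin of 200 kb on an unplaced sequence, near Pisd-ps3, and 33 in 1 bin at the start of chromosome 9, near Mir101c.

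**Figure D3:**
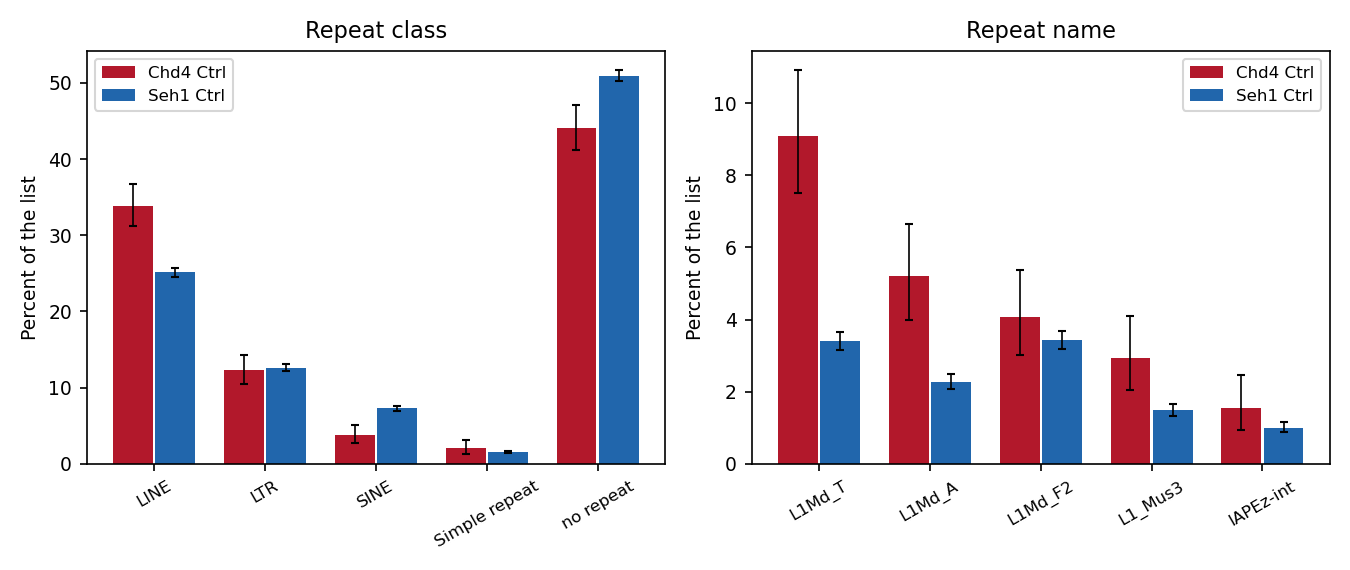
Percent of the Chd4 Ctrl (red) and Seh1 Ctrl (blue) lists in each repeat class (left) and in selected repeats by name (right), with exact 95% intervals of counting error as error bars. L1Md_T held 9.10% of Chd4 peaks, against 3.39% of Seh1 peaks.

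The Chd4 Ctrl list, unlike the other Chd4 lists, had a large share of its peaks on X. Chromosome X held 274 Chd4 peaks, or 23.7% (21.3 to 26.3%), against 1557 Seh1 peaks, or 7.47% (7.12 to 7.84%). In the other Chd4 lists the share of X was 5.59% for siSeh1 (5.32 to 5.87%), 5.07% for iKO (4.78 to 5.37%) and 4.07% for siSCR (3.34 to 4.90%). Per Mb of span, X held 1.63 Chd4 peaks and the autosomes 0.358, while for Seh1 the densities were 9.28 on X and 7.98 on the autosomes. Chromosome 4 held 124 Chd4 peaks, or 10.7%, against 6.14% of Seh1 peaks. Much of this came from densely packed stretches, and without the bins described next X held 13.7% of Chd4 peaks (11.6 to 16.1%), against 7.36% of Seh1 peaks (7.01 to 7.73%).

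**Figure D4:**
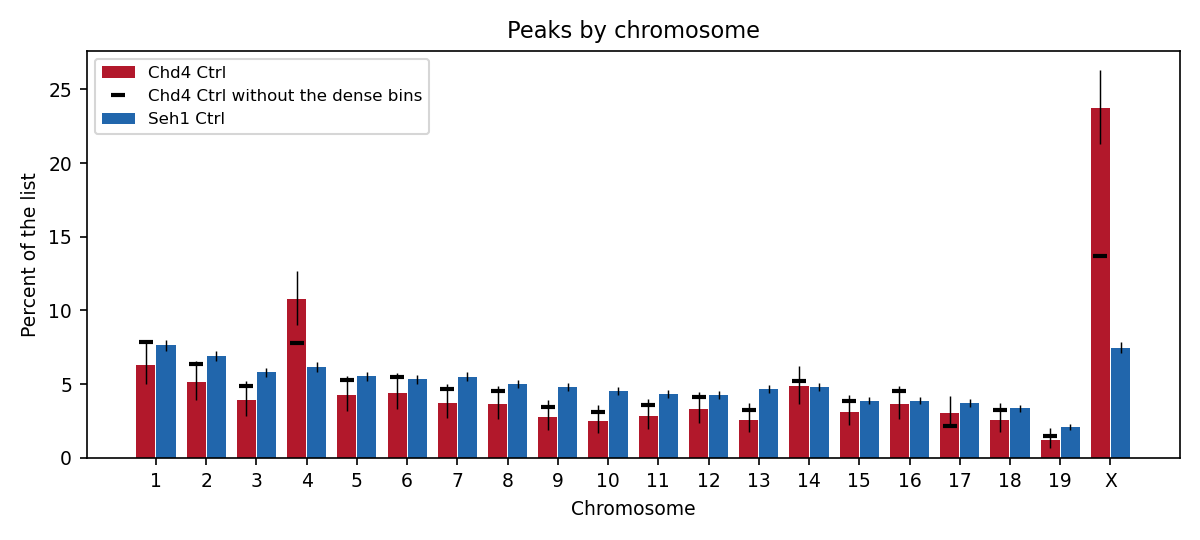
Percent of the Chd4 Ctrl (red) and Seh1 Ctrl (blue) peaks on each chromosome, with exact 95% intervals of counting error as error bars and black marks for Chd4 Ctrl without the densely packed bins. X holds 23.7% of Chd4 peaks, against 7.47% of Seh1 peaks.

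Chd4 peaks were packed locally. When the genome was cut into bins of 200 kb, 20 bins held 5 or more Chd4 peaks, up to 20 in 1 bin. These 20 bins held 228 Chd4 peaks, or 19.8% of the list (17.5 to 22.2%), against 40 Seh1 peaks, or 0.192% (0.137 to 0.261%). The bins were chosen by their Chd4 count, so a lower Seh1 count there is no finding. They held 2 Seh1 peaks each on average, against 1.61 per 200 kb of the whole span, and 5 of them held none. Of the bins, 12 lay on X with 147 Chd4 peaks and 4 on chromosome 4 with 52. The Seh1-flag list had peaks in all 20, 287 in total with 3 to 33 per bin, and the siSCR list had 101 peaks in 18 of them. Reads from near-identical gene copies can map to several places, and whether that bears on these counts was not tested.

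The bins are described by the gene named most often in them. The Btbd35f18 stretch of X held 19 and 16 Chd4 peaks in adjoining bins, against 1 and 3 Seh1 peaks. On X from 31 to 34 Mb, where further Btbd35f genes lie, there were 98 Chd4 peaks, against 24 Seh1 peaks. The bin of 4932411N23Rik on X held 20 Chd4 peaks and 0 Seh1 peaks, and that of Gm12887 on chromosome 4 also held 20 and 0. The bin of the zinc finger gene Zxda and of Spin4 held 19 Chd4 peaks and 2 Seh1 peaks. The bin of Cldn34c1 was the fullest of the 20 for Seh1, with 11 Chd4 peaks and 6 Seh1 peaks, and its Chd4 peaks lay 4.81 kb from a Seh1 peak at the median. The bin of Rab44 and Cdkn1a on chromosome 17 held 5 Chd4 peaks and 0 Seh1 peaks, with a median distance of 461 kb to the next Seh1 peak.

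**Figure D5:**
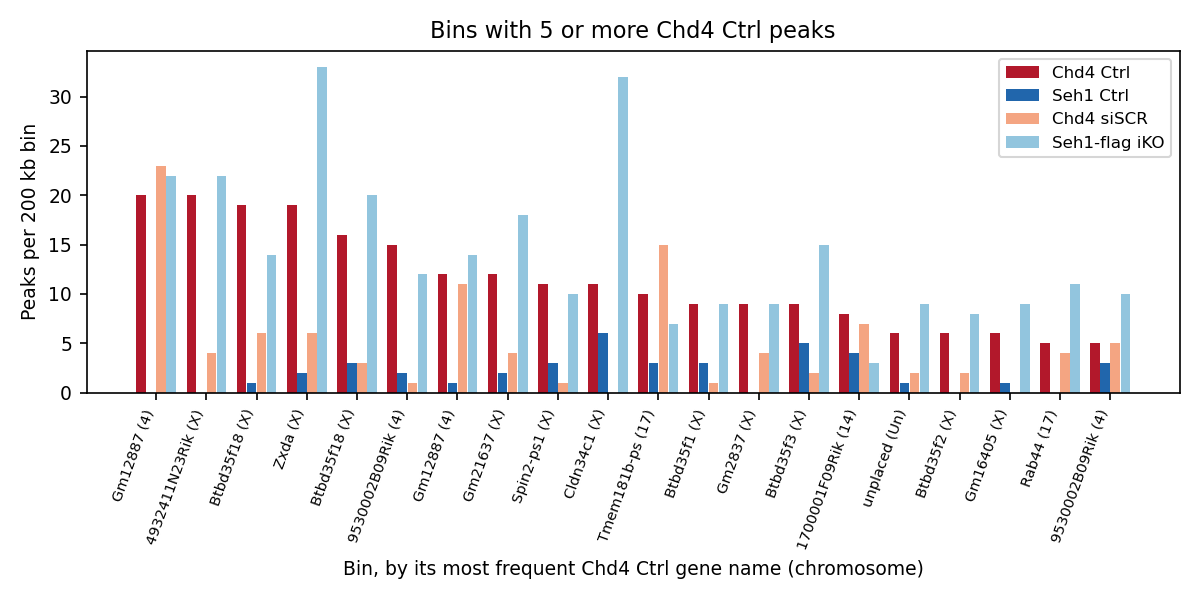
Number of peaks in each of the 20 bins of 200 kb with 5 or more Chd4 Ctrl peaks, for Chd4 Ctrl, Seh1 Ctrl, Chd4 siSCR and Seh1-flag, with bins named by their most frequent Chd4 Ctrl gene name and chromosome. The bins were chosen by the Chd4 Ctrl count, and Seh1 Ctrl has 0 to 6 peaks in a bin.

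Seh1 had packed bins as well, most of them without a Chd4 peak. In 365 bins there were 5 or more Seh1 peaks, up to 42, and 36 of these bins held at least 1 Chd4 peak (60 Chd4 peaks in all). On the autosomes and X, 36 of 362 such bins held a Chd4 peak, or 9.94% (7.06 to 13.5%), against 6.44% of the 12852 bins in the span. Bins packed in both lists numbered 2. The gene with most Seh1 peaks was Lrrc4c, which encodes a ligand of netrin-G at synapses, with 4 Chd4 and 43 Seh1 peaks and 1.48 kb between the closest. By gene name the fullest for Chd4 were Btbd35f18 with 37 Chd4 peaks and 1 Seh1 peak, Gm12887 with 28 and 3, 9530002B09Rik with 24 and 7, and 4932411N23Rik with 20 and 14. Further down came Btbd35f2 with 12 Chd4 peaks and 3 Seh1 peaks, Zxda with 12 and 1, Cldn34c1 with 11 and 11, Gm2837 with 9 and 0, and 1700001F09Rik and Btbd35f10 with 8 and 2 each.

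The 10 highest Chd4 scores fell on Seh1-flag peaks and on no Seh1 Ctrl peak, in a list of which 1.73% overlapped Seh1 Ctrl. The top peak, with a score of 35.5, lay at chr15:30222047 in an L1Md_T element in an intron of Ctnnd2, the gene of the neuronal junction protein delta-catenin, and the nearest Seh1 Ctrl peak was 222 kb away. The next 9 all lay on X, 6 near 4932411N23Rik with scores of 12.8 to 17.8 and 3 near Zxda with scores of 13.5 to 15.3. The distance from these 10 to a Seh1 Ctrl peak ran from 11.0 to 222 kb. All 10 overlapped a Seh1-flag peak and 4 a siSCR peak, and none overlapped a peak of iKO or siSeh1. In the whole Chd4 Ctrl list, 10.5% overlapped Seh1-flag, 5.29% siSCR, 1.21% iKO and 1.65% siSeh1, so the absence from the last lists says little. The 9 on X lay in the packed bins of 4932411N23Rik and Zxda, where Seh1-flag had 22 and 33 peaks. The 10 are therefore not separate stretches.

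By nearest TSS at any distance, most genes named by the Chd4 list were also named by the Seh1 list, but this turned on distant peaks. Each peak carries the name of the gene with the nearest TSS, however far. Of the 770 genes named by Chd4 peaks, 607 were named by Seh1 peaks too, or 78.8% (75.8 to 81.7%), and these were 6.65% of the 9134 genes that Seh1 peaks named. With peaks within 10 kb of a TSS only, 19 of 93 Chd4 genes were named by both, or 20.4% (12.8 to 30.1%), and with peaks inside genes only, 151 of 271, or 55.7% (49.6 to 61.7%). Among protein-coding genes the count was 440 of 571, or 77.1%, beside 33.8% of the 21900 protein-coding genes of the reference that the Seh1 list named and 2.61% that the Chd4 list named. A gene alone in a long stretch is named by every peak in it, so this background is not matched for the length around a gene. Genes named by both lists had 4 Seh1 peaks at the median, against 1 for genes named by Seh1 alone. The share of genes also named by Seh1 Ctrl was 78.8% for Chd4 Ctrl, against 63.6% (61.4 to 65.7%) for siSCR, 55.4% (54.4 to 56.4%) for iKO and 50.9% (50.0 to 51.8%) for siSeh1. In that order the lists had median TSS distances of 86.1, 35.1, 49.2 and 37.98 kb. Whether this difference bears on the shares was not tested.

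Within a gene named by both, the peaks were usually apart. The closest pair was 26.2 kb apart at the median (22.6 to 30.2 kb) over 606 genes, with quartiles of 8.72 and 64.7 kb. In 46 genes the closest pair lay within 1 kb, in 165 within 10 kb, and in 89 beyond 100 kb. The 1 further gene had its peaks on different sequences.

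Beyond the overlaps, 10 genes, named by the nearest TSS at any distance, had the closest pairs, at 145 to 428 bp. They were Pcsk5, a proprotein convertase, at 145 bp; Btbd35f2 at 158 bp; Gm13034 at 200 bp; and Erbb4, the neuregulin receptor, at 232 bp in its intron 1, which held 7 Seh1 peaks. Trpc5, a cation channel of neurons, followed at 263 bp in its intron 1. Then came Kif2b, a kinesin, at 344 bp, Steap1 at 349 bp, Olfr1170, an olfactory receptor, at 415 bp, Adgrb3, an adhesion receptor of synapses, at 416 bp, and Dsc3, a desmosomal cadherin, at 428 bp. At Steap1 and Olfr1170 both peaks lay in an L1Md_T element by name. Only at Erbb4 and Trpc5 did the Chd4 peak of the pair lie inside the named gene, and the others were intergenic. Over the 10 genes it lay from 9.1 kb (Btbd35f2) to 907 kb (Dsc3) from the named TSS, without regard to side.

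Introns gave a stricter match than the nearest TSS. Of the 273 intronic Chd4 peaks, 90 shared their intron with a Seh1 peak, or 33.0% (27.4 to 38.9%), in 78 genes. No background was computed for this share, and a long intron can collect peaks of both lists that lie far apart. The closest Seh1 peak of the same intron was 17.3 kb away at the median, with quartiles of 3.19 and 51.1 kb. Lsamp, which encodes an IgLON adhesion protein of limbic neurons, stood first, with 3 Chd4 peaks and 10 Seh1 peaks in intron 1 and 2 Chd4 peaks and 8 Seh1 peaks in intron 2. None of its 5 Chd4 positions lay in a repeat, their scores were 3.32 to 5.25, and the closest was 12.4 kb from a Seh1 peak. Nxph1, the gene of the neurexin ligand neurexophilin, held 2 Chd4 peaks in its intron 1, 1 of them with a score of 10.9 in an L1Md_T element, with 3 Seh1 peaks.

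Promoter peaks named 4 of the 21900 protein-coding genes in the Chd4 list, or 0.0183%, and 219 in the Seh1 list, or 1.00%. No gene had a promoter peak in both lists, from which little can be read with so few Chd4 promoters. Of the 7 genes with a Chd4 promoter peak, 6 were named by Seh1 peaks elsewhere. Beside 78.8% of all genes named by Chd4, no excess can be read from 7 genes. The 6 were Btbd35f2 at 8.22 kb, Tmem181b-ps at 8.72 kb and Sec14l3 at 13.6 kb, then Mageb18 at 18.6 kb, Olfr1300-ps1 at 39.1 kb and LOC108168459 at 143 kb. Tmem254b had no Seh1 peak by name. Of all genes that Seh1 peaks named, 6.65% were named by Chd4 too. Of the 282 genes with a Seh1 promoter peak, 18 were named by a Chd4 peak. Besides the promoters shown above they included Mir101c at 0.635 kb, Cd59b, an inhibitor of complement, at 15.1 kb, Zfp706 at 18.9 kb, Sfi1, a centrosome protein gene, at 27.1 kb, the apolipoprotein gene Apob at 129 kb and Kcnip4, a partner of potassium channels, at 254 kb. The rest were Itgbl1, Mir6388, Crispld1, Btbd35f7, 4930459L07Rik, Tm2d1, Gm32461, Mir28a and Gm21119, between 39.2 and 949 kb.

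Genes of synaptic adhesion were the list most often named by Chd4 among the 10 lists examined. Of its 39 genes, 14 were named by Chd4 peaks and 34 by Seh1 peaks, and each of the 14 was named by both. These were 35.9% of the list by Chd4 and 87.2% by Seh1, beside 2.61% and 33.8% of all protein-coding genes. The list was chosen with earlier results known. Among them were Lrrtm1, Cntnap2, Cntnap5a, Cntnap5b, Cntn5, Csmd3, Il1rapl1, Lsamp, Ntm, Cadm2, Tenm4, Adgrl3 and Lrp1b. Their closest pairs ran from 2.95 kb at Il1rapl1, a receptor accessory protein of synapses, to 294 kb at Tenm4, a teneurin. Cntnap5a, of the neurexin superfamily, had its closest pair at 5.95 kb with 1 Chd4 and 20 Seh1 peaks, and Lrrtm1, a ligand of neurexins, at 8.08 kb with 1 Chd4 and 16 Seh1 peaks. Many of these genes are long or stand alone in gene-poor stretches, where the nearest TSS is named from far off.

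The other neural lists are read against the same shares of all protein-coding genes, 2.61% named by Chd4 and 33.8% by Seh1. Of 33 neurotransmitter receptor genes, 3 were named by Chd4 and 27 by Seh1. The 3 were named by both lists, among them Grm7, a metabotropic glutamate receptor, with a closest pair at 9.50 kb, and Grin3a, an NMDA receptor subunit, at 14.0 kb. Of 24 neural stem cell factors, 0 were named by Chd4 and 12 by Seh1, among them the transcription factors Sox1, Sox3 and Hes1 with 1 Seh1 peak each. Of 30 neurogenic and neuronal factors, 2 were named by Chd4 and 13 by Seh1. Neurod1, which drives neuronal differentiation, had 1 Chd4 peak 6.92 kb upstream of its TSS and no Seh1 peak by name, and Syt1, a calcium sensor of synaptic vesicles, had 1 Chd4 and 2 Seh1 peaks. Markers of astrocytes (0 by Chd4 and 7 by Seh1 of 14), of oligodendrocytes (0 and 5 of 14) and of microglia and endothelium (1 and 7 of 14) were read by gene name only. Pecam1, an endothelial adhesion gene, was the 1 named by Chd4.

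The complexes to which the targets belong were named by Seh1 at about the share of all protein-coding genes. Of 15 NuRD genes, 1 was named by Chd4 and 5 by Seh1, or 33.3%. The 1 was Mbd2, a reader of methylated CG, with 1 Chd4 peak 693 kb from its TSS and 6 Seh1 peaks, the closest pair 10.5 kb apart. Of 31 nucleoporin genes, 0 were named by Chd4 and 10 by Seh1, or 32.3%, among them Nup98 and Nup210 with 2 Seh1 peaks each. Only 28 of these 31 names were in the reference, so this share and the 33.8% of all protein-coding genes are not fully matched. Of 35 cell cycle genes, 1 was named by Chd4 and 7 by Seh1. The 1 was Cdkn1a, the gene of the kinase inhibitor p21, with a Chd4 peak 2.31 kb beyond the gene at chr17:29103034, while the nearest Seh1 Ctrl peak was 467 kb from the gene. Seh1l itself held no Chd4 peak, the nearest being 3465 kb away, and 1 Seh1 peak in an exon, at chr18:67784806-67785125. The Chd4 gene held no Chd4 peak, the nearest being 197 kb away, and 1 Seh1 peak in an intron, at chr6:125124925-125125230.

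Gene families lay on both sides of the 2.61% of all protein-coding genes named by Chd4. Whether all members of these families are protein-coding was not checked, so this background may not be matched to them. The share by Chd4 was 1.19% for olfactory receptors, 1.95% for vomeronasal receptors, 3.85% for Zfp genes, 5.10% for potassium channels and 6.12% for cadherins and protocadherins. Chd4 peaks named 17 and Seh1 peaks 232 of 1428 olfactory receptor genes, with 6 named by both. Of 416 Zfp zinc finger genes, 16 were named by Chd4, 140 by Seh1 and 15 by both. Of 98 cadherin and protocadherin genes, 6 were named by Chd4, 38 by Seh1 and 5 by both, and of 98 potassium channel genes 5 were named by Chd4, 47 by Seh1 and 5 by both. Of 359 vomeronasal receptor genes, 7 were named by Chd4, 154 by Seh1 and 4 by both. Predicted genes named Gm took 15.7% of the Chd4 peaks, against 8.73% of the Seh1 peaks.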

How the data were processed

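ChIP-seq peak lists of 6 libraries, 1 per group, were used as deposited. Per the file headers, the authors annotated the peaks with HOMER on mm10. The submitters' processing notes give Bowtie2 and HOMER, with no version, and list human builds. The peak caller, threshold, input and pooling were not given in the sources used here. Each peak has a score deposited by the authors, on a scale not stated. Start and end positions are used as deposited, and all Seh1 Ctrl scores are 0. Depth is unknown.

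Chd4 positions were widened to 240 bp and overlapped with Seh1 intervals by at least 1 bp (pandas 2.3.3 and numpy 2.4.6 in Python 3.11.15). The code was checked with bedtools 2.31.1, which also gave 20 overlaps, and on simulated lists. Intervals are exact Clopper-Pearson 95% intervals (scipy 1.17.1), and those of medians come from order statistics. Gene names are those of the deposited annotation, and 97.7% of Chd4 and 98.6% of Seh1 gene names matched RefSeq genes of GRCm38.p6, to which mm10 corresponds. Dense bins are 200 kb bins with 5 or more Chd4 Ctrl peaks.

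Genes named are those at overlaps, the 10 next closest, the 10 with most Chd4 peaks, those of the 10 highest Chd4 scores, promoter peak genes named by the other list, gene list members named by both, and Seh1l, Chd4 and Cdkn1a; some of these are not reported here. Lrrc4c, Nxph1, Erbb4 by intron, Tmem254b, Neurod1, Pecam1, Sox1, Sox3, Hes1, Nup98, Nup210 and the families were added after their values were seen. The members and lists were chosen with earlier results of these data known. Alternatives changed the window, overlap rule, distance limit, score limit, chromosomes, repeats, dense bins and gene assignment.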

Additional observations from a re-analysis of the deposited data

How the results depend on the processing

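With 1 library per group, no library could be left out, and the unknown depth limits every count. No paired analysis was possible because each group has 1 library. Of 59 alternative values for 20 results, 40 stayed inside the counting interval of the reported value and 19 left it. A Chd4 window of 1000 bp gave an overlap of 2.69%, and the other overlap alternatives gave 1.39 to 2.08%. Limits of 1 kb and 100 kb, in place of 10 kb, gave 4.51% and 81.8%. On the autosomes alone, 18.4% of Chd4 peaks lay within 10 kb of a Seh1 peak, the median distance was 40.6 kb, and Chd4 peaks were 69.3% intergenic and 28.6% intronic. For Seh1 on the autosomes the shares were 60.2% intergenic, 35.9% intronic, 23.9% LINE, 9.49% L1Md and 52.2% no repeat. Without the dense bins, Chd4 peaks were 68.7% intergenic, 29.4% intronic, 22.1% L1Md and 2.70% SINE, and 13.7% lay on X; this last alternative was chosen after seeing the data. With genes named only by peaks within 10 kb of a TSS, 20.4% of Chd4 genes (19 of 93) were named by both lists, and with peaks inside genes only, 55.7% (151 of 271). The higher-scoring 577 Chd4 peaks, with ties at the cut taken in order of position, left no result outside its interval.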
